A study of Mus musculus with 12 samples.

Results

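The genes described here encode 37 proteins that write, read or erase chemical marks on RNA, and all 37 were looked up by symbol in 6 deposited lists of N4-acetylcytidine (ac4C) peaks. The set runs from the ac4C writers Nat10 and Thumpd1 through the m6A writers, erasers and readers to the m5C, A-to-I, pseudouridine, m1A and m7G enzymes. A peak was given to a gene where the deposited annotation places the peak's centre inside that gene. Of the 37 genes, 9 had a peak in at least 1 list and 28 had none.

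The cells were mouse peritoneal macrophages, phagocytes of the abdominal cavity, kept in culture with interferon-γ (IFN-γ), the main cytokine of classical macrophage activation. For the mice, the sources used here give no genotype, strain, sex or age. The 12 samples formed 6 groups of 2, with an ac4C pull-down group and a total RNA group at 0, 24 and 48 h of IFN-γ. No untreated group was taken at 24 or 48 h, so IFN-γ and hours in culture cannot be told apart. Separate animals or cultures within a group are not stated. The pull-down gave 2 peak lists at each time, called list 1 and list 2 in no order, while the libraries of total RNA were not analysed here. A peak list shows where pull-down exceeded its control, not how much of an RNA was present, so a gene without a peak may be unexpressed, unmarked or too thinly covered.

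RNA marks are placed by writers, removed by erasers and bound by readers, which pass the mark on to splicing, export, translation or decay. NAT10 is the acetyltransferase that makes ac4C, and THUMPD1 is the adaptor that helps it acetylate tRNA. The m6A mark is placed by a nuclear complex built on METTL3 and METTL14, erased by FTO and ALKBH5 and read by proteins with a YTH domain. In macrophages the m6A system is known to act on transcripts of innate immunity.

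Peak numbers were 1151 and 946 in the lists of 0 h, 725 and 646 in those of 24 h, and 674 and 611 in those of 48 h. Protein-coding genes with a peak numbered 815 and 696 (0 h), 526 and 468 (24 h), and 513 and 458 (48 h). Relative to the deepest list, the control library, called input here, stood at 100% and 91.4% (0 h), 73.7% and 80.8% (24 h), and 57.2% and 44.5% (48 h). The pull-down libraries stood at 91.5% and 78.0% (0 h), 100% and 98.0% (24 h), and 78.0% and 68.5% (48 h). Of 12 macrophage marker genes, 4 had a peak (Itgam, Lyz2, Ptprc and Cebpb), while the other 8, among them Adgre1 and Csf1r, had none. Of 48 markers of other peritoneal and stromal cells, only the mesothelial Wt1 had a peak, in 48 h list 2.

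The readers of m6A held most of the peaks. Of the 5 genes of the YTH family, 4 had a peak, namely Ythdf1, Ythdf2, Ythdf3 and Ythdc1, and Ythdc2 had none. Of the 3 Igf2bp genes, whose proteins stabilise bound mRNAs, Igf2bp2 had a peak and Igf2bp1 and Igf2bp3 had none. Among the 8 genes of the m6A writer complex, 1 had a peak, Zc3h13, which anchors the complex in the nucleus. The other genes of that complex without a peak were the catalytic pair Mettl3 and Mettl14, the scaffolds Wtap and Virma, the RNA-binding Rbm15 and Rbm15b, and Cbll1. Both ac4C genes, Nat10 and Thumpd1, lacked a peak in all 6 lists. So did the stand-alone m6A methyltransferase Mettl16, the cap m6Am writer Pcif1, and the erasers Fto and Alkbh5. The A-to-I deaminases Adar and Adarb1 and the pseudouridine synthases Pus1, Pus7 and Dkc1 also had none.

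Outside the m6A system 3 genes had a peak. Nsun3, which methylates a mitochondrial tRNA, was 1 of 5 m5C writers, and Nsun2, Nsun5, Nsun6 and Trdmt1 had none. Alyref, an export adaptor that reads m5C, had a peak and the second m5C reader, Ybx1, did not. Trmt6, the partner subunit of the tRNA m1A methyltransferase, had a peak, while its catalytic partner Trmt61a and the m7G methyltransferase Mettl1 had none. Together, 9 of 37 genes is 24.3%, against 1756 of 21900 protein-coding genes of the RefSeq table, or 8.02%. The 21900 genes include those that macrophages do not express, and expression was not measured here, so the share among expressed genes is not known. The 37 genes were also chosen with earlier results of these data known, and the difference between the shares was not tested. As the plot of peaks by gene and list shows, most of the grid is empty and the 24 h columns hold a single peak.

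**Figure D1:**
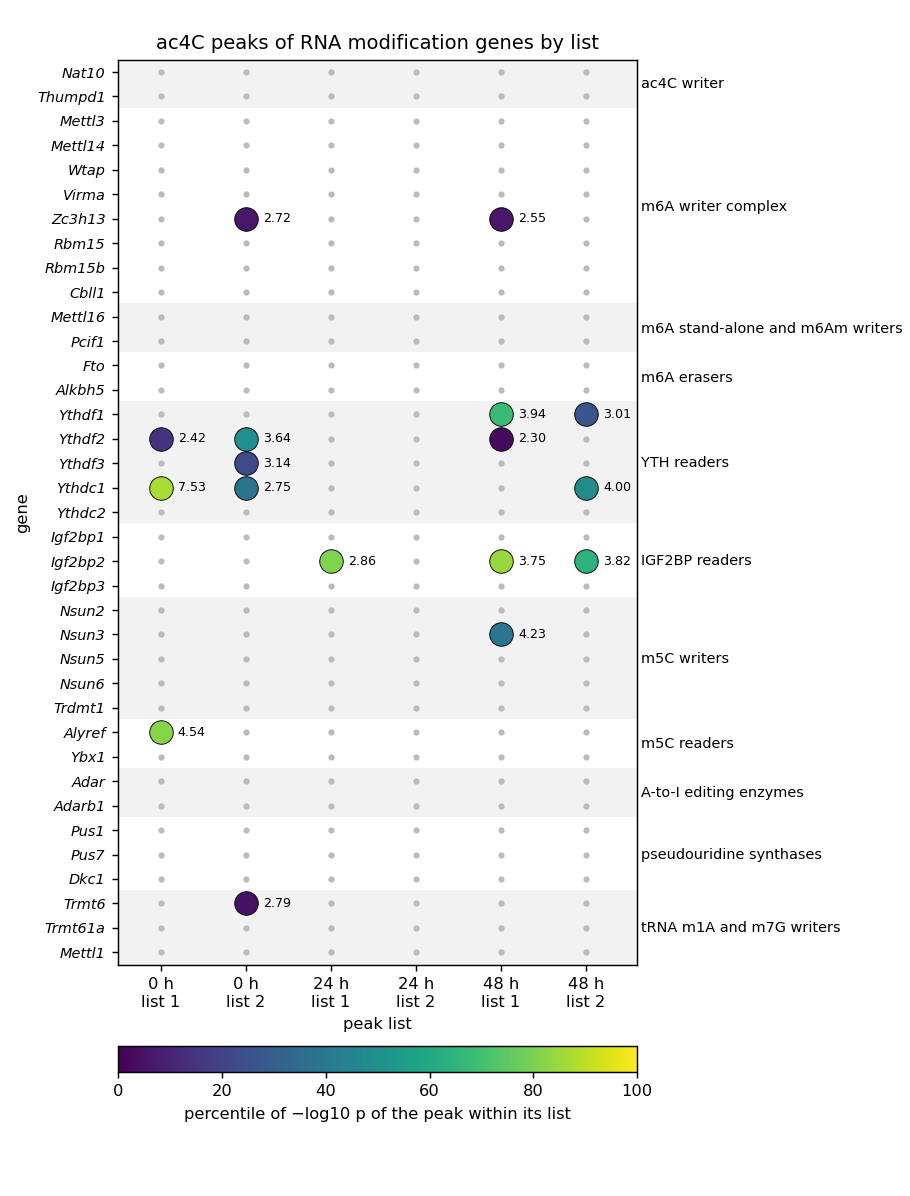
Each row is 1 of the 37 genes, grouped by role, and each column 1 of the 6 peak lists. A large circle is a peak, with the authors' fold enrichment beside it and its colour giving the percentile of its −log10 p within the list (the stronger of 2 for Ythdc1 in 0 h list 1), and a small dot means no peak. The 9 genes with a peak fill 17 of the cells, of which 4 YTH reader genes hold 9 and 24 h holds 1.

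Counted by list, the genes with a peak numbered 3 and 5 (0 h), 1 and 0 (24 h), and 5 and 3 (48 h). The mean was 4.0 ± 1.41 genes at 0 h, 0.5 ± 0.707 at 24 h and 4.0 ± 1.41 at 48 h (SD, n = 2 lists each). Neither 24 h list reached the lowest count of any list of the other times. As a share of the protein-coding genes of a list they made up 0.368% and 0.718% (0 h), 0.19% and 0% (24 h), and 0.975% and 0.655% (48 h). The 0 of 468 genes in 24 h list 2 allows a share of up to 0.641% by a limit of 3 counts, and the exact binomial 95% interval reaches 0.785%. The exact intervals of all 6 shares overlap, which does not show that the shares are alike. A difference in the share between times was not tested. The intervals cover counting error only.

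**Figure D2:**
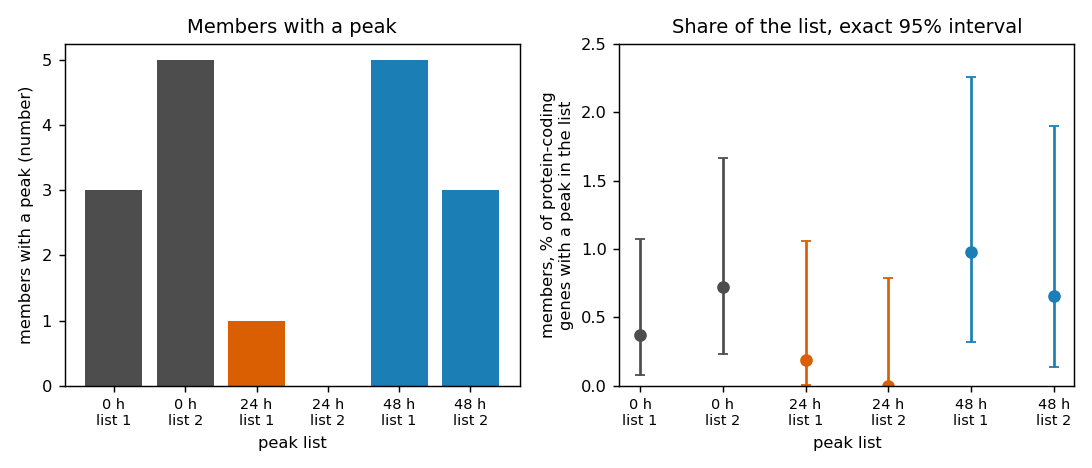
The left panel gives the number of the 37 genes with a peak in each of the 6 lists. The right panel gives that number as a percentage of all protein-coding genes with a peak in the list, with exact (Clopper-Pearson) 95% binomial intervals, which overlap between all lists. The left bars reach 5 in 1 list each of 0 h and 48 h and at most 1 at 24 h.

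In 0 h list 1 the genes were Alyref, Ythdc1 and Ythdf2, and in 0 h list 2 they were Trmt6, Ythdc1, Ythdf2, Ythdf3 and Zc3h13. Igf2bp2 was alone in 24 h list 1, and 24 h list 2 had none. In 48 h list 1 they were Igf2bp2, Nsun3, Ythdf1, Ythdf2 and Zc3h13, and in 48 h list 2 they were Igf2bp2, Ythdc1 and Ythdf1. Of the 9 genes, 4 were in 1 list only (Alyref, Nsun3, Trmt6 and Ythdf3), 2 in 2 lists (Ythdf1 and Zc3h13) and 3 in 3 lists (Igf2bp2, Ythdc1 and Ythdf2). None was in 4 or more lists, where 13.6% of all coding genes that had a peak stood. Single-list genes made up 51.8% of all those coding genes.

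A gene was called lost when both lists of the earlier time and neither of the later held a peak, and gained in the reverse case. At 24 h against 0 h, Ythdc1 and Ythdf2 were lost, the only 2 of these genes in both 0 h lists. Across the whole set of protein-coding genes in both 0 h lists, 152 of 368 were lost at 24 h, or 41.3%. At 48 h against 0 h neither was lost, as Ythdc1 was in 48 h list 2 and Ythdf2 in 48 h list 1, and the loss over all such genes was 138 of 368, or 37.5%. With 2 genes that could be lost, neither count can be read as departing from those shares. Both comparisons share the 0 h lists.

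At 48 h against 0 h, Igf2bp2 and Ythdf1 were gained, the only 2 of these genes in both 48 h lists. Over all protein-coding genes in both 48 h lists, 44 of 181 were gained, or 24.3%. None of the 37 genes was in both 24 h lists, so none could be gained at 24 h against 0 h or lost at 48 h against 24 h. Over all protein-coding genes those shares were 22.5% and 24.6%. At 48 h against 24 h, Ythdf1 was gained, and Igf2bp2 was not, since 24 h list 1 already held it. That change covered 42 of 181 genes over all, or 23.2%.

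Ythdc1, the nuclear YTH reader of splicing and export (ENSMUSG00000035851), had the strongest peak of the 37 genes. Its main region lay in exon 3, at chr5:86964825-86965116 (GRCm39) in 0 h list 1, about 1456 bases from the start site or 6.93% of the way along the 21004 bases of the gene. The fold enrichment there was 7.53, with a −log10 p of 14.0 and a −log10 q of 9.01, at percentile 86.9 of the peaks of that list. Fold, p and q are the authors' own values for each peak, relative to the list it is in. Values of different lists stand side by side below as descriptions, and no change in strength between times is read from them. In 48 h list 2 the fold was 4.00 with a −log10 q of 0.493, and in 0 h list 2 it was 2.75 with a −log10 q of 0.62. The region was thus in both 0 h lists and 1 of 2 lists at 48 h, and in neither at 24 h.

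The fragments behind these 3 peaks can be recovered from the deposited fold and p. They were 27 pull-down fragments in 48 h list 2, and 42 and 39 in 0 h lists 1 and 2. The input coverage, brought to pull-down depth, was 3.85 fragments in 48 h list 2, and 3.59 and 12.8 in 0 h lists 1 and 2. Input coverage here and below is the control level that fold and p imply. It need not be the number of control fragments at the summit itself. The 2 lists of 0 h thus held similar numbers of pull-down fragments there, and the implied control level differed by more. Whether the control fragments at the summit differed is not known. The peaks also overlap the annotated gene Gm43055, in which their centres do not lie. A second Ythdc1 peak, in the last exon at chr5:86984114-86984450, stood in 0 h list 1 alone, with a fold of 2.98 and a q of 1.

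Ythdf2, the cytoplasmic reader that brings m6A RNA to decay (ENSMUSG00000040025), had 1 region in its 3′ UTR. It lay at chr4:131913660-131914058 in 0 h list 2, 94.0% of the way along the gene. The fold was 2.30 in 48 h list 1, and 2.42 and 3.64 in 0 h lists 1 and 2. Pull-down fragments numbered 24 in 48 h list 1, and 31 and 29 in the 0 h lists. The 48 h peak and that of 0 h list 1 had a q of 1, and the peak of 0 h list 2 had a −log10 q of 1.21. Each within its own list, the peaks stood at percentile 2.45 in 48 h list 1, and at 14.7 and 49.4 in the 0 h lists. The 48 h peak, with a −log10 p of 2.38, was thus just above the weakest peaks deposited, whose −log10 p was 2.31 to 2.33 in each list.

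Ythdf1, the family member best known for promoting translation (ENSMUSG00000038848), had a 3′ UTR peak in the lists of 48 h only. It lay at chr2:180546518-180546751 in list 1 and chr2:180546459-180546713 in list 2. The folds were 3.94 and 3.01 at 48 h, with −log10 q of 2.01 in list 1 and a q of 1 in list 2. The peaks rested on 52 and 31 pull-down fragments over 10.6 and 7.71 of input. No list of 0 h or 24 h held a peak there. Ythdf3, which acts together with both of these readers (ENSMUSG00000047213), had 1 peak in 0 h list 2. It was the one 5′ UTR peak of these genes, at chr3:16237438-16237678 and 182 bases from the start site, with a fold of 3.14, 18 fragments and a q of 1.

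Igf2bp2, a reader that protects mRNAs from decay (ENSMUSG00000033581), was the one gene with a 24 h peak. The region lay in the last exon, at chr16:21878445-21878781 in 24 h list 1 and chr16:21878545-21878809 in 48 h list 1. There was no peak at 0 h, and the fold was 2.86 in 24 h list 1, and 3.75 and 3.82 in 48 h lists 1 and 2. The −log10 q was 3.39 at 24 h, and 4.95 and 1.46 at 48 h. Each of the 3 peaks thus passed a q of 0.05, which no other of these genes did in more than 1 list. The 24 h peak held the most fragments of the set, 123 over 40.7 of input, and the 48 h peaks held 99 over 23.9 and 55 over 11.6.

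Zc3h13 (ENSMUSG00000022000) had a peak in exon 12 in 48 h list 1 and in 0 h list 2. The fold was 2.55 in 48 h list 1 and 2.72 in 0 h list 2. Those peaks rested on 14 fragments and 9 fragments, both had a q of 1, and they stood at percentiles 6.01 and 5.92 of their lists. The region began at chr14:75565043, and the centre of its 0 h list 2 peak lay 72.2% of the way along the gene. The peaks of Zc3h13 were thus weak in both of its lists, and it was not alone in this among the genes in more than 1 list. The highest −log10 q of a Ythdf2 peak was 1.21, in 0 h list 2, at percentile 49.4. The Ythdf2 peaks of 0 h list 1 and 48 h list 1 stood at percentiles 14.7 and 2.45.

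The genes seen in 1 list differed in strength. Alyref (ENSMUSG00000025134) had a 3′ UTR peak at chr11:120485381-120485646 in 0 h list 1, with a fold of 4.54, a −log10 q of 6.43 and 60 fragments over 11.4 of input. It was the second strongest peak of the 37 genes by q, and yet 0 h list 2 held none. Nsun3 (ENSMUSG00000050312) had a 3′ UTR peak at chr16:62555255-62555528 in 48 h list 1, with a fold of 4.23, 20 fragments and a −log10 q of 0.0425. Trmt6 (ENSMUSG00000037376) had a last-exon peak at chr2:132646647-132646999 in 0 h list 2, with a fold of 2.79, 12 fragments and a q of 1. None of these 3 genes had a second list behind it.

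The 18 peaks of the 9 genes fell into 10 separate regions, 1 for each gene but Ythdc1, which had 2. The median fold was 3.08 (range 2.30 to 7.53), against 3.03 over the 3992 peaks of other protein-coding genes. The median number of pull-down fragments was 30 (range 9 to 123), against 45 in the other peaks. Within their lists the peaks stood at a median percentile of 38.6, against 48.4. A q of 1 was borne by 8 of the 18 (44.4%), against 35.5% of the others, and a q of 0.05 or less by 6 of 18 (33.3%), against 42.3%. The peaks of the 37 genes thus had a similar median fold on fewer fragments, as the plot of fragments against input shows. No test was made, since peaks of 1 gene repeat over lists.

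**Figure D3:**
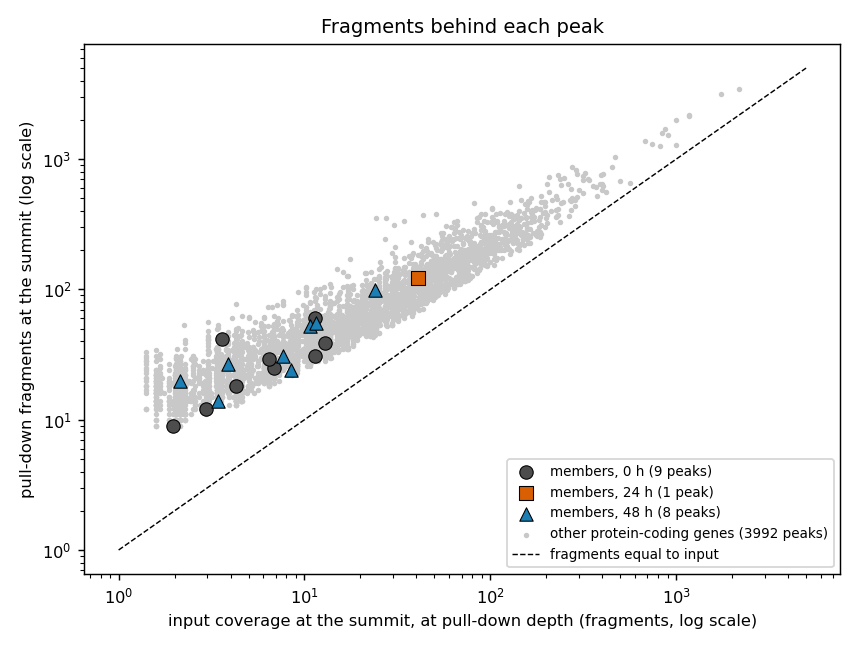
Each point is a peak, with pull-down fragments on a log vertical axis. The log horizontal axis, labelled input coverage at the summit, is the control level implied by fold and p, brought to pull-down depth. Circles, a square and triangles are peaks of the 37 genes at 0, 24 and 48 h, small grey points are the 3992 peaks of other protein-coding genes, and the dashed line marks equal numbers. The peaks of the 37 genes lie between 9 and 123 fragments, and the 24 h peak of Igf2bp2 is the highest.

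Where lists shared a region, the spread of the summits differed between genes. The summits spread over 17 bases in Ythdf1, 21 in Ythdc1 exon 3, 35 in Igf2bp2, 61 in Zc3h13 and 181 in Ythdf2. The median of these 5 regions was 35 bases, against 36 bases (quartiles 16 and 85) over all 1032 regions found in at least 2 lists. Ythdf2 alone lay beyond the upper quartile. Regions were formed by joining overlapping peaks, which itself limits the spread, so nothing is read from how small it was.

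By place in the gene, 7 of the 18 peaks (38.9%, exact binomial 95% interval 17.3% to 64.3%) lay in a 3′ UTR, against 58.3% of the other peaks. The last exon held 5 (27.8%), against 12.7%, and other exons held 5 (27.8%), against 19.3%. The 5′ UTR held 1 (5.56%), against 3.56%. No peak lay in an intron, where 6.19% of the other peaks lay, and 0 of 18 allows a share of up to 16.7% by a limit of 3 counts (exact binomial upper bound 18.5%). As regions, 4 of 10 were in a 3′ UTR, 3 in a last exon, 2 in another exon and 1 in a 5′ UTR. The interval for the 3′ UTR holds the share of the other peaks. It takes the 18 peaks as separate, though regions repeat over lists, so no conclusion on place is drawn from it.

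**Figure D4:**
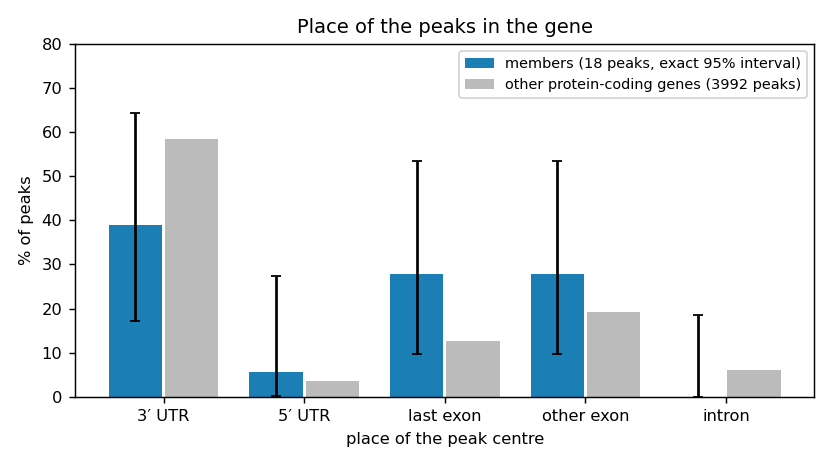
Bars give the percentage of peaks with their centre in each part of the gene, for the 37 genes (18 peaks, blue, with exact 95% binomial intervals) and for other protein-coding genes (3992 peaks, grey). The 3′ UTR bar stands at 38.9% for the 37 genes and 58.3% for the others, which lies within the interval.

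Peaks near 2 of the genes belonged to neighbours. A peak in the 3′ UTR of Manf, present in 24 h list 2 and in both 0 h lists, had the Rbm15b start site as its nearest, at 1608 to 1662 bases. A peak in intron 2 of Gm43055 in 48 h list 2 lay 11172 bases from the start of Ythdc1. Neither was counted for the 37 genes.

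A wider list of 114 other RNA modification genes was looked up in the same way, and 10 had a peak (8.77%), close to the 8.02% of all protein-coding genes. By set they were 3 of 7 other reported readers, 2 of 5 genes of cap methylation, and 1 each of m5C oxidation and NSUN genes, pseudouridylation, tRNA methylation, wobble modification and deaminases. None had a peak among further m6A writers, 2′-O-methylation, rRNA base modification or dihydrouridine genes. Rnmt, the cap guanine-7 methyltransferase, was in 5 lists. Its peak lay in the 3′ UTR at 0 h (folds 3.06 and 4.71), and in exon 2 at 24 h (folds 3.18 and 2.64) and 48 h (fold 4.39, list 1). These peaks rested on 11 and 18 fragments at 0 h, 29 and 21 at 24 h and 24 at 48 h. A q of 1 was borne by the peak of 0 h list 1 and both 24 h peaks, and the peak of 0 h list 2 alone passed a q of 0.05. The annotated place of the Rnmt peaks thus differed between 0 h and the later lists, on few fragments and mostly weak peaks.

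The others named here were in 3 lists or changed between times. Hnrnpa2b1, an RNA-binding protein reported to act as an m6A reader, had an exon 3 peak in 24 h list 1 (fold 2.86) and both 0 h lists (folds 2.60 and 2.51), and was lost at 48 h. Tet3, which oxidises 5-methylcytosine, had a 3′ UTR peak in both 0 h lists (folds 4.17 and 6.35) and in no later list. Apobec1, the C-to-U deaminase, had intron 5 peaks in both 24 h lists (folds 2.34 and 3.24) and 0 h list 1 (fold 1.90), with a further 3′ UTR peak in 0 h list 1 (fold 1.76, q of 1), and was lost at 48 h against 24 h. Of the 114 genes, 1 of 3 that could be lost at 24 h against 0 h was lost, beside 41.3% over all protein-coding genes, and 2 of 3 at 48 h against 0 h, beside 37.5%. At 48 h against 24 h, 1 of 2 was lost, beside 24.6%. Of 2 that could be gained at 24 h none was, and none was in both 48 h lists, so no gain at 48 h was possible. With 3 or fewer genes that could change, these counts cannot be read as departing from the shares over all genes. By list the genes numbered 5 and 5 (0 h) among 815 and 696 protein-coding genes, 3 and 4 (24 h) among 526 and 468, and 1 and 1 (48 h) among 513 and 458, and their shares were not compared between times.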

How the data were processed

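Each deposited table lists peak summits with the authors' fold enrichment (a ratio), −log10 p and −log10 q, per the file headers. BWA 0.7.12, MACS2 2.1.0 and GRCm39 are named in the submitters' processing notes; the sources used here give neither settings nor the control library of each list. Starts are printed as deposited and may be off by 1 base. Where annotations overlapped, 3′ UTR came before 5′ UTR, then the last exon, any other exon and the intron.

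Protein-coding genes came from a RefSeq table of another build, used for names only; of 2095 symbols 1985 matched (94.7%). All 37 genes were found in it. Whole fragment numbers were recovered from fold and p with 1 factor per list, within 0.005 of −log10 p, at 100% of summits. The best-fitting number was kept, and a match does not show that it is the only one that fits. The recovery was tested on data simulated with the same formula, which cannot show that the deposited values follow it. Input depth was taken from the lowest input coverage of a list. Results are descriptions without tests. The genes, lists and markers were chosen with earlier results of these data known. All 37 genes are accounted for; of the 114, those in 3 or more lists or changed are named. Computation used Python 3.11.15, pandas 2.3.3 and scipy 1.17.1.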

Additional observations from a re-analysis of the deposited data

How the results depend on the processing

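The 9 genes with a peak became 4 at a q of 0.05 or less (Alyref, Igf2bp2, Ythdc1 and Ythdf1), 2 at a q of 1e-05 or less and 3 at a fold of 4 or more. All protein-coding genes with a peak fell too, from 458 to 815 per list to 168 to 432 at a q of 0.05 or less. They were 58 to 195 per list at a q of 1e-05 or less and 97 to 174 at a fold of 4 or more. The drop is thus not read as particular to the 37 genes. At those 3 settings no gene stayed in both 0 h lists, so none could be lost at 24 h. The gains at 48 h against 24 h were 0. At a q of 0.05 or less 1 gene could be gained there, beside 26.7% gained over all protein-coding genes. The gains at 48 h against 0 h were 1 of 1 (Igf2bp2) at a q of 0.05 or less, beside 24.0% over all genes. At the other 2 settings none could be gained. With 611 peaks kept per list, and at matched input coverage, Ythdc1 alone was in both 0 h lists. It was lost at 24 h, beside 35.7% and 43.6% over all protein-coding genes at these 2 settings. Matching removed the peaks of Trmt6 and Zc3h13, the last-exon peak of Ythdc1 and 2 of 3 Ythdf2 peaks. Leaving out 1 list at a time gave 7 to 9 genes with a peak, a count that can only stay or fall. The share over all protein-coding genes is not given for it. Shares in brackets are those over all protein-coding genes. Losses at 24 h were 2 to 5, with 5 of 5 without 0 h list 1 (58.3%). Losses at 48 h were 0 to 2, with 2 of 5 without 0 h list 1 (55.9%). They were 1 without 0 h list 2 or either 48 h list (53.0% to 57.9%). Gains at 24 h were 0 to 1, with Igf2bp2 gained without 24 h list 2. Gains at 48 h were 2 to 3, with 3 of 5 without 48 h list 2 (43.3%). Gains at 48 h against 24 h were 1 to 4, with 4 of 5 without 48 h list 2 (47.2%). They were 2 without 24 h list 1 (44.8%) or 48 h list 1 (45.9%). The shares in brackets all lay above those with every list kept (41.3%, 37.5%, 24.3% and 23.2%). The larger counts are thus not read as departing from them. Under the rule for lost and gained, leaving out a list can add calls but cannot undo one. That Ythdf1 stayed gained at 48 h, and Ythdc1 and Ythdf2 lost at 24 h, was thus fixed in advance and shows no stability. The share in the 3′ UTR was 33.3% to 50% over 6 settings, within its interval. The 33.3% rested on 6 peaks, and the 50% on 2 peaks (q of 1e-05 or less) and 4 peaks (fold of 4 or more). Assigning genes by exon or by any overlap changed none of these counts. No paired analysis was possible because the results come from no test and the number of a list pairs nothing. With 9 to 123 fragments at a peak, absence from a list does not show absence of the mark.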
